A study of Homo sapiens with 6 samples.

Results

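YAP1 and WWTR1, the TEAD factors TEAD1 and TEAD4 through which they act, and 6 genes reported as their targets or as members of the same pathway (CTGF, CYR61, ANKRD1, AMOTL2, LATS2 and AJUBA) were measured by RNA-seq in the human ovarian cancer line HEY. These 10 genes were chosen by name from the 58735 genes of the series, and all 10 passed the filter on low values used here, a mean of at least 1 FPKM (fragments scaled by gene length and by library size). The series holds 6 libraries. In the Vector group (n = 3 libraries) HEY cells had received the empty vector, and in the oeCSGALNACT2 group (n = 3 libraries) a pLVX-IRES-Puro plasmid that carries full-length human CSGALNACT2, which encodes an enzyme of chondroitin sulfate synthesis. The study gives DMEM with serum as the medium of HEY cells and names no other difference between the groups. It does not state that they were otherwise handled alike. The study's RNA-seq methods speak of transfected cells and a figure legend of stable overexpression. Its methods also describe lentiviral infection of the cells, followed by screening of the cell lines with puromycin. None of these says whether cells were pooled or came from 1 clone. Separate cultures are not stated for the libraries, so p-values measure only the spread among the libraries sequenced, and that spread may be technical. In bulk RNA, fewer cells expressing a gene and less RNA per cell cannot be told apart.

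The mean levels of the 4 factors differed by less than the spread between libraries, and the means of all 6 target genes were lower in oeCSGALNACT2 cells. Over all genes tested, 50.8% had a log2 fold change below 0. For LATS2 and ANKRD1 the groups overlapped, at log2 fold changes of -0.20 and -0.21 and limma adjusted p of 0.638 and 0.733. CTGF was 1.88-fold lower and CYR61 2.06-fold lower, AMOTL2 was 1.73-fold lower and AJUBA 1.30-fold lower, and in each of these 4 genes the highest oeCSGALNACT2 library was lower than the lowest Vector library. Across all genes tested, 12.8% lay below in this way and 11.2% above. CTGF alone passed the limma test adjusted over 11479 genes, at an adjusted p of 0.0487 with 3 libraries against 3, where 0.845% of all genes passed in this direction and 0.505% in the other. With same-numbered libraries paired as a block, CYR61, AMOTL2 and AJUBA passed as well (limma adjusted p = 0.000759, 0.00166 and 0.00701), in a fit that called 22.5% of all genes lower. None of the 10 genes passed in the higher direction in either fit. YAP1, the gene for which the pathway is best known, had nearly the same mean level in both groups.

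YAP1 and its paralog TAZ, which is encoded by WWTR1, are coactivators without a DNA-binding domain of their own. The Hippo kinases MST1 and MST2 (STK4 and STK3) activate LATS1 and LATS2, which phosphorylate YAP and TAZ and so hold them in the cytoplasm. When the kinases are inactive, YAP and TAZ enter the nucleus and bind TEAD proteins, which sit on DNA at the motif GGAATG and turn on genes such as CTGF and CYR61. YAP is regulated largely by phosphorylation and by its place in the cell, which RNA levels do not measure, and in ovarian cancer it is known as a promoter of growth.

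The promoter stretches that bear on these genes are shown here because TEAD proteins recognise a short motif. Only exact matches were counted, so variants of the motif were not. RefSeq promoter windows of GRCh38.p14, each from 250 bases before a transcription start to 50 after it, were found for 7 of the 10 genes, 10 windows in all, with CTGF listed as CCN2. CYR61, TEAD1 and TEAD4 had none. GGAATG or its reverse complement CATTCC was found in a window of 6 of the 7 genes (YAP1, CTGF, ANKRD1, AMOTL2, LATS2 and AJUBA) and in neither window of WWTR1. Counted by window, it was in 6 of these 10, and in 14% of all 35116 windows of the same length. Because the genes were chosen partly as reported targets, these shares are a description and not a test. Below are the 250 bases before the start, 5′ to 3′ on the strand of the gene, with each match in capitals, for the gene with the most matches (CTGF), for the pair of genes with matches and lower levels (AMOTL2 and AJUBA, the second of 2 starts each) and for ANKRD1, which has matches and a low level. For LATS2 the match lay after the start and 30 bases around it are shown. The other start of AMOTL2 and of AJUBA had no match, and the stretches shown for both lie within the annotated gene. Which start HEY cells use was not tested.
CTGF, chr6:131951373-131951622, minus strand: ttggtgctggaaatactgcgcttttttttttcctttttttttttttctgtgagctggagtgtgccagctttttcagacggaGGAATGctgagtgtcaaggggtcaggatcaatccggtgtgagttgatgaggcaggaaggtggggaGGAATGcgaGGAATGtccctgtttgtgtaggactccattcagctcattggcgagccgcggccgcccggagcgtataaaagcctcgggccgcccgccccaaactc
AMOTL2, chr3:134374448-134374697, minus strand: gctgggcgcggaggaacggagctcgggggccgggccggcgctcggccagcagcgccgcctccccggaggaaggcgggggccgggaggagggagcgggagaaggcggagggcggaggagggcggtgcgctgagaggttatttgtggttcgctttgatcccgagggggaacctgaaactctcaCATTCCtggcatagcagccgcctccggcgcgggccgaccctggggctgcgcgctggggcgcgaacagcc
AJUBA, chr14:22976843-22977092, minus strand: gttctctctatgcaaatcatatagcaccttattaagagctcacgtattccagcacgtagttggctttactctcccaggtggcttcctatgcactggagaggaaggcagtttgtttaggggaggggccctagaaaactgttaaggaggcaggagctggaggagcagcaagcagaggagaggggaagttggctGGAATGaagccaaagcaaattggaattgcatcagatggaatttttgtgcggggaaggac
ANKRD1, chr10:90921088-90921337, minus strand: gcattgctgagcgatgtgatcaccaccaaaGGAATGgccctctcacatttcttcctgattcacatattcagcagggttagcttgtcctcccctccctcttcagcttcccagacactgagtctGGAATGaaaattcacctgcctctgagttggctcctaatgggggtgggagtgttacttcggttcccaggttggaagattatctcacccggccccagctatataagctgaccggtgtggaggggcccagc
LATS2, chr13:21061560-21061589, minus strand: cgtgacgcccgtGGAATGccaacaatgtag

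CTGF held 3 matches, with first bases at -169, -104 and -95 from the start, and only 44 of the 35116 windows, or 0.125%, held 3 or more. ANKRD1 held 2 matches, at -220 and -128. YAP1 itself held 1 match at -162, AJUBA 1 at -59, LATS2 1 at 10 after the start and AMOTL2 1 on the other strand at -69. The longer form GGAATGT or ACATTCC was present in the windows of YAP1, CTGF and AMOTL2, and in 3.46% of all windows. A match describes these letters and is not a measured binding site.

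**Figure D1:**
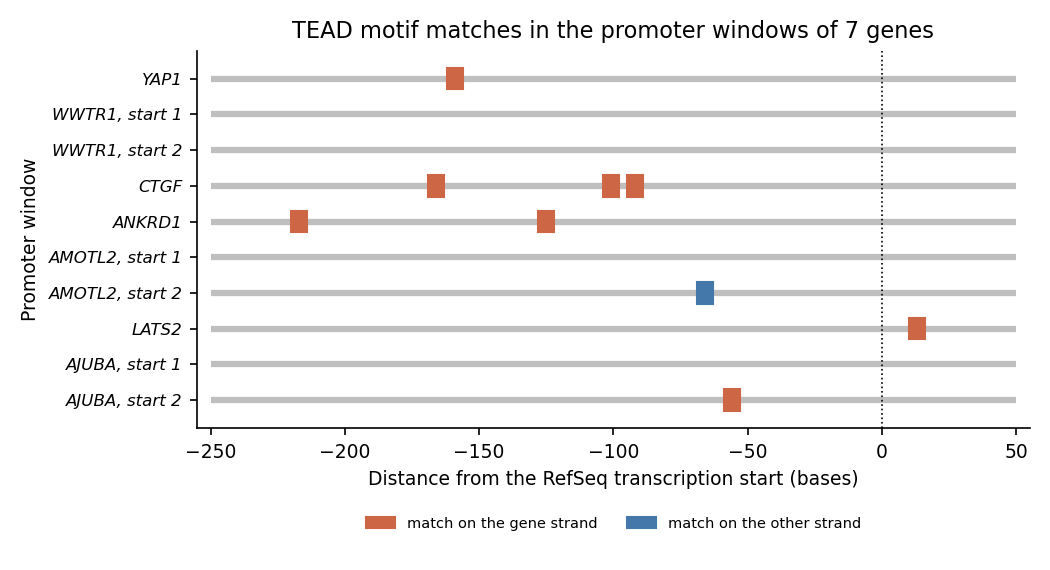
Matches of the TEAD motif in 10 RefSeq promoter windows of 7 genes, by distance from the transcription start in bases, with matches on the strand of the gene in orange and on the other strand in blue. CTGF has 3 matches between -169 and -95, and both WWTR1 windows have none.

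The libraries held 15628834 to 18186682 reads assigned to genes. CSGALNACT2 was at 15.3, 8.18 and 8.12 FPKM in Vector replicates 1 to 3 and at 535, 453 and 409 FPKM in oeCSGALNACT2 replicates 1 to 3 (log2 fold change 5.39, SE 0.27, limma adjusted p = 0.00302), in the direction of the sample descriptions, although the titles name CSGALNACT1, whose mean was 0.183 FPKM in Vector and 0.0955 FPKM in oeCSGALNACT2 cells. Replicate 1 of both groups stood apart: across genes, Pearson's r of log2 levels for replicates 2 and 3 was 0.9905 in Vector and 0.9855 in oeCSGALNACT2, but 0.8872 to 0.9130 between replicate 1 and the others of its group, and 0.9301 between the 2 replicates numbered 1. The mitochondrial share of reads was 2.77% to 3.61% among Vector and 4.60% to 4.82% among oeCSGALNACT2 libraries. Of the markers of an ovarian carcinoma cell, KRT8 had means of 79.2 and 188 FPKM, KRT18 of 107 and 189 FPKM and PAX8 of 41.9 and 45.4 FPKM in Vector and oeCSGALNACT2 cells, EPCAM stayed at a mean under 1 FPKM, CDH1 was at 0.00975 and 0.00634 FPKM, and MUC16 was at 0 in all Vector libraries. The 9 epithelial markers summed to 177 to 322 FPKM in Vector and 332 to 572 FPKM in oeCSGALNACT2 libraries. The 5 fibroblast markers summed to 3.04 to 5.66 FPKM over both groups. The 3 endothelial markers summed to 19.9 to 31.0 FPKM in Vector and 6.25 to 10.4 FPKM in oeCSGALNACT2 libraries, nearly all of it CDH5, with PECAM1 and VWF at means of 0.228 and 0.248 FPKM in Vector cells. The part of the mitochondrial share, of the keratins and of CDH5 in the results below was not tested.

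YAP1 (11:102110461-102233423 of GRCh38, plus strand) was the most abundant of the 4 factors. It stood at 56.1, 40.1 and 39.8 FPKM in Vector replicates 1 to 3 and at 55.9, 42.6 and 38.9 FPKM in oeCSGALNACT2 replicates 1 to 3. The 2 replicates numbered 1 were the highest of their groups, by 1.41 and 1.37 times the mean of the other replicates, and the groups overlapped. The means were 45.3 ± 9.36 and 45.8 ± 8.94 FPKM (SD, n = 3 libraries each), with a log2 fold change of 0.02 (SE 0.22, 95% interval -0.52 to 0.56, limma adjusted p = 0.983). The interval still holds falls and rises of over 0.5 on the log2 scale. When each library was compared with the library of the same number (limma with a replicate block), the interval narrowed to -0.13 to 0.16 and the adjusted p was 0.835.

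WWTR1 (3:149517235-149736714, minus strand), which encodes TAZ, was the lowest of the 4 factors. Its levels were 13.2, 8.60 and 8.22 FPKM in Vector replicates 1 to 3 and 10.7, 7.82 and 7.64 FPKM in oeCSGALNACT2 replicates 1 to 3. As for YAP1, replicate 1 was the highest in both groups, and the groups overlapped. The log2 fold change was -0.16 (SE 0.24, 95% interval -0.73 to 0.40, limma adjusted p = 0.786). Within each library YAP1 exceeded WWTR1, by 4.25, 4.66 and 4.84 times in Vector and by 5.21, 5.45 and 5.09 times in oeCSGALNACT2 replicates 1 to 3. This ratio was higher in every oeCSGALNACT2 library (two-sided exact permutation test, p = 0.1, the smallest that 3 libraries against 3 allow).

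TEAD1 and TEAD4 encode DNA-binding partners of YAP and TAZ. TEAD1 (11:12674591-12944483, plus strand) was the steadiest of the 10 genes over the 6 libraries, at 24.6, 22.7 and 20.9 FPKM in Vector and 22.4, 22.4 and 20.0 FPKM in oeCSGALNACT2 replicates 1 to 3, with overlapping groups and a log2 fold change of -0.07 (SE 0.16, 95% interval -0.44 to 0.31, limma adjusted p = 0.882). TEAD4 (12:2959330-3040673, plus strand) varied with the replicate number, at 12.5, 23.1 and 25.0 FPKM in Vector and 11.9, 25.8 and 29.5 FPKM in oeCSGALNACT2 replicates 1 to 3. Replicate 1 held 0.521 and 0.431 of the mean of the other replicates, the opposite of its position for YAP1 and WWTR1. The log2 fold change of TEAD4 was 0.11 (SE 0.41, 95% interval -0.88 to 1.09, limma adjusted p = 0.935), and the interval reached past a 2-fold rise. The ratio of TEAD1 to TEAD4 was 1.96 and 1.88 in the replicates numbered 1 and 0.676 to 0.986 in the other 4 libraries. Their paralogs were lower: TEAD2 had means of 6.26 and 6.23 FPKM and TEAD3 of 4.48 and 3.96 FPKM in Vector and oeCSGALNACT2 cells.

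**Figure D2:**
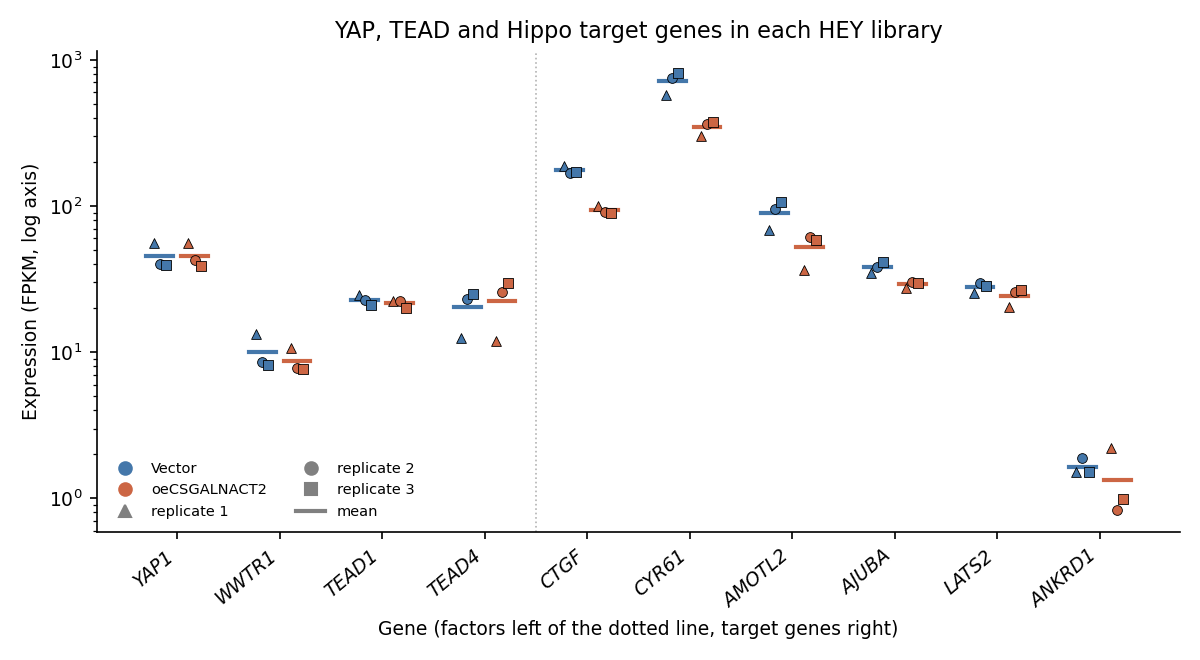
Level of each gene in each of the 6 libraries in FPKM on a log axis, Vector in blue and oeCSGALNACT2 in orange, with the replicate number as the marker shape and the group mean as a bar. The 4 factors overlap between the groups, whereas CTGF, CYR61, AMOTL2 and AJUBA do not, and replicate 1 (triangles) lies away from replicates 2 and 3 in YAP1, WWTR1, TEAD4 and AMOTL2.

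CTGF (6:131948176-131951373, minus strand), also called CCN2, encodes a secreted matricellular protein and is a widely used readout of YAP activity. It stood at 188, 168 and 171 FPKM in Vector replicates 1 to 3 and at 99.4, 91.4 and 89.2 FPKM in oeCSGALNACT2 replicates 1 to 3. Every oeCSGALNACT2 library was far below every Vector library, and the spread within a group was small beside the gap. The means were 176 ± 11.1 and 93.3 ± 5.41 FPKM (SD, n = 3 libraries each), and the log2 fold change was -0.91 (SE 0.15, 95% interval -1.26 to -0.55, limma adjusted p = 0.0487). The exact permutation test over the libraries gave p = 0.1 (two-sided), the smallest that this design allows, and gave the same p for CYR61, AMOTL2 and AJUBA. CTGF had 3638 to 7250 reads per library, so counting error was small. The call itself rested on all 6 libraries: the limma adjusted p was 0.0810, 0.287 and 0.214 without Vector replicates 1 to 3 and 0.0598, 0.232 and 0.246 without oeCSGALNACT2 replicates 1 to 3, while the log2 fold change stayed between -0.95 and -0.85. The same-numbered libraries differed by -0.92, -0.87 and -0.93 on the log2 scale of FPKM.

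CYR61 (1:85580761-85583962, plus strand), or CCN1, is the paralog of CTGF and was the most abundant of the 10 genes, ranking 27 among the 11479 tested by its Vector mean, where CTGF ranked 161. It stood at 575, 756 and 818 FPKM in Vector replicates 1 to 3 and at 302, 365 and 373 FPKM in oeCSGALNACT2 replicates 1 to 3. The groups were well apart, and replicate 1 was the lowest of each. The means were 716 ± 126 and 347 ± 38.9 FPKM (SD, n = 3 libraries each), with a log2 fold change of -1.03 (SE 0.19, 95% interval -1.48 to -0.58). The adjusted p of 0.0587 from limma missed the threshold of 0.05, although this log2 fold change lay further from 0 than that of CTGF. CYR61 passed with the replicate block (limma adjusted p = 0.000759) and in DESeq2 on the recovered reads (adjusted p = 0.00571). Set against YAP1 in the same library, CYR61 stood at 10.2, 18.8 and 20.6 times its level in Vector and 5.40, 8.57 and 9.59 times in oeCSGALNACT2 replicates 1 to 3.

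AMOTL2 (3:134355874-134375479, minus strand) encodes an angiomotin-like scaffold of cell junctions that binds YAP and is itself a YAP target. It stood at 68.3, 96.1 and 106 FPKM in Vector replicates 1 to 3 and at 36.3, 61.8 and 58.3 FPKM in oeCSGALNACT2 replicates 1 to 3. The groups did not overlap, but replicate 1 fell to 0.675 and 0.605 of the mean of the others, so that Vector replicate 1 came close to oeCSGALNACT2 replicate 2. The log2 fold change was -0.79 (SE 0.28, 95% interval -1.46 to -0.12, limma adjusted p = 0.219). With the replicate block the interval was -0.97 to -0.61 and the adjusted p 0.00166 from limma. Of its relatives, AMOT was at 0.0450 FPKM or less in every library and AMOTL1 had means of 9.34 and 10.4 FPKM.

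AJUBA (14:22971174-22982642, minus strand) encodes a LIM-domain scaffold that binds and restrains LATS kinases. Its levels were 34.5, 38.2 and 41.2 FPKM in Vector replicates 1 to 3 and 27.4, 30.2 and 29.9 FPKM in oeCSGALNACT2 replicates 1 to 3. The groups did not overlap, and the gap was smaller than for CTGF, CYR61 and AMOTL2. The log2 fold change was -0.36 (SE 0.16, 95% interval -0.74 to 0.01, limma adjusted p = 0.306), and with the replicate block the adjusted p was 0.00701 from limma. Its relatives LIMD1, with means of 4.13 and 6.49 FPKM, and WTIP, with 0.395 and 0.783 FPKM, were at lower levels and had higher means in oeCSGALNACT2 cells.

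LATS2 (13:20973032-21061547, minus strand) encodes the kinase that phosphorylates YAP and TAZ, and it is also turned on by them. It stood at 25.4, 29.6 and 28.3 FPKM in Vector replicates 1 to 3 and at 20.3, 25.9 and 26.4 FPKM in oeCSGALNACT2 replicates 1 to 3. The groups overlapped, and in each same-numbered pair the oeCSGALNACT2 library was lower, by -0.31, -0.19 and -0.10 on the log2 scale of FPKM. The log2 fold change was -0.20 (SE 0.18, 95% interval -0.62 to 0.22, limma adjusted p = 0.638), and the adjusted p with the block was 0.0614 from limma. LATS2 exceeded its paralog LATS1 by 2.67 to 5.38 times in every library, least in the 2 replicates numbered 1.

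ANKRD1 (10:90912096-90921276, minus strand), an ankyrin repeat protein first known from heart muscle and a frequent YAP readout, was expressed at a low level. It stood at 1.51, 1.88 and 1.52 FPKM in Vector replicates 1 to 3 and at 2.20, 0.831 and 0.995 FPKM in oeCSGALNACT2 replicates 1 to 3, from 49, 67, 51, 71, 28 and 36 reads. The highest library was oeCSGALNACT2 replicate 1 and the lowest oeCSGALNACT2 replicate 2. The log2 fold change was -0.21 (SE 0.25, 95% interval -0.80 to 0.38, limma adjusted p = 0.733). On replicates 2 and 3 alone it was -0.49 with an adjusted p of 0.0294 from limma, a call that the fit of all 6 libraries did not make.

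**Figure D3:**
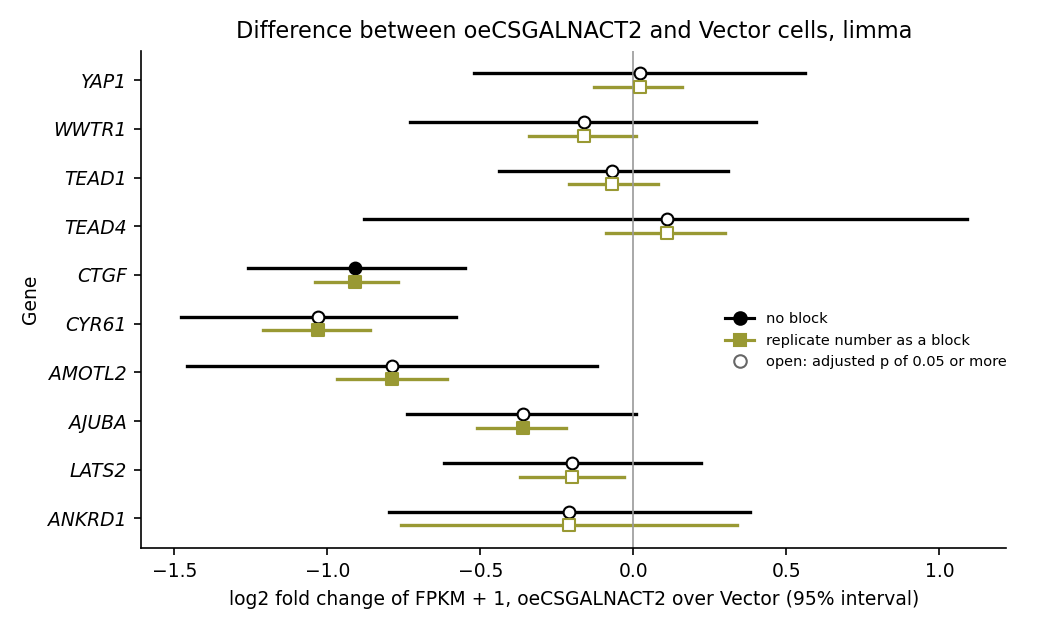
Log2 fold change of FPKM + 1, oeCSGALNACT2 over Vector, with 95% intervals from limma without a block (black) and blocked on replicate number (olive), where filled markers have an adjusted p under 0.05. Without the block CTGF alone is filled, at -0.91, and with it CTGF, CYR61, AMOTL2 and AJUBA are filled.

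The number of the 10 genes that passed depended on the fit, and so did the number among all genes. Limma without a block called 1 lower and 0 higher, and at an unadjusted p under 0.05 it had 3 lower (CTGF, CYR61 and AMOTL2) and 0 higher, beside 9.26% and 7.8% of all genes. With the block, limma called 4 lower (CTGF, CYR61, AMOTL2 and AJUBA) and 0 higher, where 22.5% of all genes were called lower and 21.2% higher. On replicates 2 and 3 alone it called 5 lower, those 4 and ANKRD1, and 0 higher, against 21.1% and 20.7% of all genes. DESeq2 on the recovered reads called CYR61 and CTGF, 2 lower and 0 higher, against 2.59% and 1.94% of all genes. EdgeR called 0 in either direction, with adjusted p of 0.059 for CTGF and 0.0647 for CYR61, where 0.552% of all genes were called lower and 0.419% higher. At an unadjusted p under 0.05 edgeR had CTGF, CYR61 and AMOTL2 lower, 3 genes, and 0 higher, beside 8.35% and 8.85% of all genes. In all 3 same-numbered pairs, 7 of the 10 genes were lower and 0 were higher, against 35.6% and 33.4% of all genes tested.

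The median log2 fold change of the 6 targets was -0.58 and that of the 4 factors -0.03, beside -0.01 over all genes tested, 90% of which lay between -0.75 and 0.75. CTGF, CYR61 and AMOTL2 lay below this range and the other 7 genes inside it. CTGF relative to YAP1 in the same library was at 3.36, 4.19 and 4.29 in Vector and 1.78, 2.14 and 2.29 in oeCSGALNACT2 replicates 1 to 3, without overlap.

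The other genes of the pathway were taken from lists written from general knowledge of it. Beside the list counts here and below, limma had 9.26% of all genes lower and 7.8% higher at an unadjusted p under 0.05. With the block it called 22.5% of all genes lower and 21.2% higher. Of the 17 genes of the Hippo kinase cascade, all tested, 0 passed limma in either direction (1 lower and 2 higher at an unadjusted p under 0.05), and the median log2 fold change was -0.25. The smallest p belonged to TAOK3, a kinase that activates MST kinases, at 10.6 ± 0.681 and 7.01 ± 0.601 FPKM in Vector and oeCSGALNACT2 cells (SD, n = 3 libraries each), followed by its paralog TAOK2 at 2.23 and 6.04 FPKM and by NF2, the tumour suppressor merlin, at 2.32 and 3.31 FPKM. Their limma adjusted p were 0.141, 0.239 and 0.285. With the block 8 genes of the cascade were lower and 4 higher, among them TAOK3, TAOK2 and NF2. DESeq2 called TAOK2 alone, at an adjusted p of 0.0423, and edgeR called 0.

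Among 24 upstream adaptors and junction proteins, 18 were tested, and 0 passed limma in either direction (2 lower and 0 higher at an unadjusted p under 0.05) with a median log2 fold change of -0.06. Besides AMOTL2 and AJUBA, the smallest p belonged to TJP1, the junction protein ZO-1, at 12.5 and 9.48 FPKM, to RASSF1, a scaffold that binds MST kinases, at 8.03 and 5.84 FPKM, and to DLG1, a polarity scaffold, at 19.4 and 27.6 FPKM. Their log2 fold changes were -0.37, -0.41 and 0.49, with adjusted p of 0.268, 0.311 and 0.366 from limma. With the block 7 were lower and 5 higher, beside 22.5% and 21.2% of all genes, and edgeR and DESeq2 called 0.

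Of 10 YAP, TAZ, TEAD and VGLL factors, 8 were tested and 0 passed limma (1 lower and 0 higher at an unadjusted p under 0.05). The one was VGLL3, a cofactor that competes with YAP for TEAD binding, at 22.6, 15.2 and 14.8 FPKM in Vector replicates 1 to 3 and 9.75, 7.73 and 7.34 FPKM in oeCSGALNACT2 replicates 1 to 3. It did not overlap between the groups, and its log2 fold change was -0.98 (SE 0.22, limma adjusted p = 0.0913, 0.00102 with the block). DESeq2 called VGLL3 (adjusted p = 0.0111) and edgeR did not (adjusted p = 0.0891). VGLL4, which represses TEAD targets, had means of 3.73 and 5.48 FPKM with overlapping groups (log2 fold change 0.44, limma adjusted p = 0.637, 0.0124 with the block). With the block, VGLL3 was the 1 gene of the list called lower and VGLL4 the 1 called higher.

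A signature of 22 YAP and TAZ target genes, all tested, held 5 of the 10 genes. In it 2 genes were lower and 0 higher in limma (6 lower and 2 higher at an unadjusted p under 0.05), and the median log2 fold change was -0.22, or -0.13 for the 17 genes outside the 10. The second gene beside CTGF was GADD45A, a stress-induced inhibitor of the cell cycle, which stood at 138, 151 and 171 FPKM in Vector and 46.2, 39.4 and 45.5 FPKM in oeCSGALNACT2 replicates 1 to 3. Its log2 fold change of -1.79 (SE 0.16, limma adjusted p = 0.0117) was further from 0 than that of any of the 10 genes. Without Vector replicate 2 or 3 its adjusted p was 0.127 or 0.0951, and without oeCSGALNACT2 replicate 2 or 3 it was 0.110 or 0.101 (limma). With the block 10 genes of the signature were lower and 2 higher, in a fit that called 22.5% of all genes lower and 21.2% higher. In the signature edgeR called 1 lower and 1 higher, beside 0.552% and 0.419% of all genes, and DESeq2 4 lower and 1 higher, beside 2.59% and 1.94%. The gene that edgeR called higher was IGFBP3, named after its values were seen, a carrier of insulin-like growth factors, at 0.899 and 2.82 FPKM (adjusted p = 0.0488 from edgeR and 0.0527 from limma). F3, also named after its values were seen, was lower without overlap, at 31.4 and 13.5 FPKM. Its log2 fold change was -1.16, with adjusted p of 0.0521 from limma, 0.0609 from edgeR and 0.00134 from DESeq2.

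Of 17 other reported YAP or TEAD targets, 15 were tested, 1 was lower and 0 were higher in limma (6 lower and 4 higher at an unadjusted p under 0.05), and the median log2 fold change was -0.25. The lower one was ADAMTS1, a secreted protease of the extracellular matrix, at 40.3, 43.6 and 44.4 FPKM in Vector and 20.8, 21.7 and 21.9 FPKM in oeCSGALNACT2 replicates 1 to 3 (log2 fold change -0.96, limma adjusted p = 0.0418). Like CTGF it missed the threshold without any 1 of the 6 libraries, at limma adjusted p of 0.0598 to 0.287. The 6 lower genes were ADAMTS1 and, named after their values were seen, DLC1, MYC, EDN1, INHBA and ETV5. These others had log2 fold changes of -0.91, -1.03, -0.93, -0.86 and -0.42, at limma adjusted p of 0.05002 to 0.271. In this list 8 genes lay lower and 4 higher without overlap, beside 12.8% and 11.2% of all genes. DESeq2 called 5 lower and 0 higher, beside 2.59% and 1.94% of all genes. The 4 higher genes were TGM2, BIRC5, CCND1 and THBS1, also named after their values were seen. Their log2 fold changes were 1.05, 0.81, 0.73 and 0.62, without overlap between the groups, at limma adjusted p of 0.126 to 0.192. With the block 9 genes of this list were lower and 4 higher, beside 22.5% and 21.2% of all genes. In the CCN family, 3 of 6 genes were tested. NOV (CCN3) differed in direction from CTGF and CYR61, at 15.6 and 25.6 FPKM, with a log2 fold change of 0.70 (limma adjusted p = 0.246, 0.00197 with the block) and no overlap between the groups.

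The AP-1 subunits, which often bind enhancers beside TEAD, were all tested, 8 genes, of which 1 was lower and 0 were higher in limma (2 lower and 0 higher at an unadjusted p under 0.05), with a median log2 fold change of -0.52. The lower one was ATF3, a stress-induced member, at 3.60, 3.67 and 3.06 FPKM in Vector and 0.532, 0.756 and 1.11 FPKM in oeCSGALNACT2 replicates 1 to 3 (log2 fold change -1.31, limma adjusted p = 0.0315). It stayed past the threshold without oeCSGALNACT2 replicate 1 (limma adjusted p = 0.0494) and lost it without any other library, at 0.0670, 0.214 and 0.160 without Vector replicates 1 to 3 and 0.175 and 0.116 without oeCSGALNACT2 replicates 2 and 3. With the block 5 of the AP-1 subunits were lower and 0 higher, beside 22.5% and 21.2% of all genes. Of 16 SRF and MRTF targets, which share CTGF and CYR61 as reported targets and respond to actin, 13 were tested and 0 passed limma (0 lower and 2 higher at an unadjusted p under 0.05). Their median log2 fold change was 0.19, beside -0.01 over all genes tested. In Vector and oeCSGALNACT2 cells ACTB was at 705 and 1097 FPKM, TPM1 at 13.7 and 20.7 FPKM and ACTA2 at 2.23 and 3.41 FPKM. With the block 0 of the 13 were lower and 5 higher, beside 22.5% and 21.2% of all genes, and edgeR and DESeq2 called 0. A part of SRF or MRTF in the levels of CTGF and CYR61 was not tested.

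**Figure D4:**
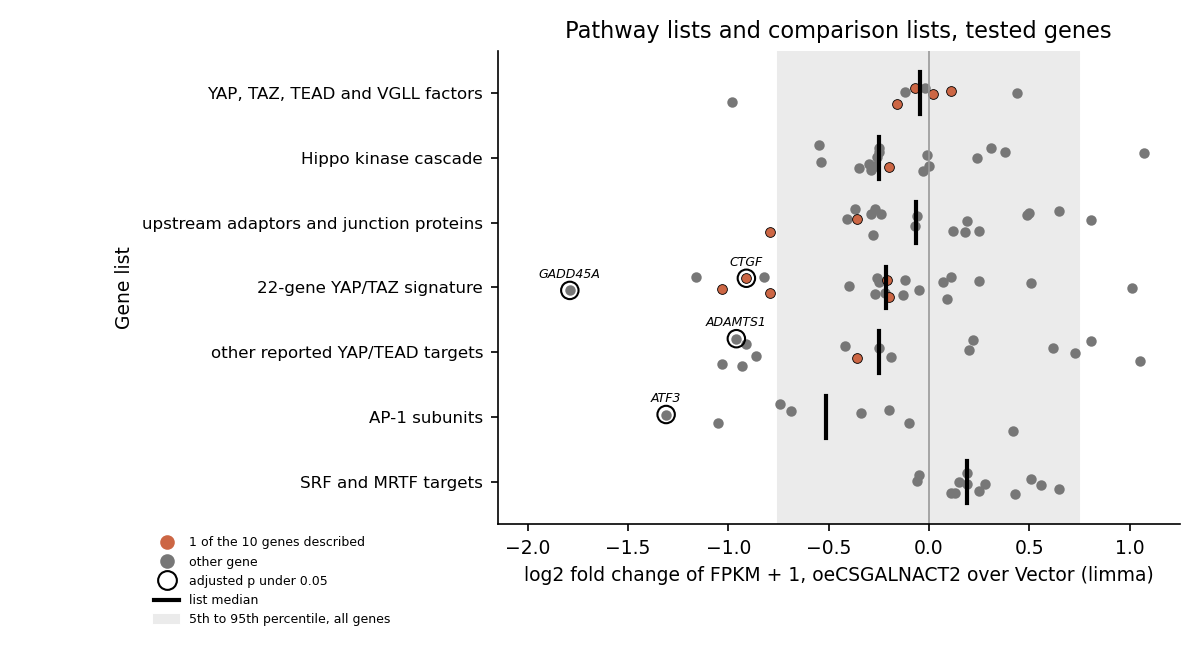
Log2 fold change of FPKM + 1, oeCSGALNACT2 over Vector, for every tested gene of 7 lists, with the 10 genes described in orange, list medians as black bars and the range of the middle 90% of all genes (-0.75 to 0.75) in grey. GADD45A, CTGF, ADAMTS1 and ATF3 are ringed as past the limma threshold, and the medians run from -0.52 for the AP-1 subunits to 0.19 for the SRF and MRTF targets.

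The genes whose log2(FPKM + 1) followed CTGF most closely over the 6 libraries were NEDD4L (Pearson's r = 0.9996), ERRFI1 (0.9994) and SGK1 (0.999), and 359 genes had an r above 0.95. Those nearest to CYR61 were UNC5B (0.9994), PPP1R15A (0.9986) and TRIB3 (0.9982), with 233 genes above 0.95. ERRFI1, an inhibitor of EGF receptor signalling, fell from 89.3 to 18.0 FPKM, and TRIB3, a stress-induced pseudokinase, from 54.9 to 11.4 FPKM (adjusted p = 0.0104 and 0.0312 from limma). Those nearest to YAP1 were DDIAS (0.9978), GCLC (0.9975) and MELK (0.9975), with 662 genes above 0.95. These values describe 6 points that share 2 groups and a replicate 1 that stands apart.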

How the data were processed

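RNA of 3 Vector and 3 oeCSGALNACT2 HEY libraries was sequenced from samples of high integrity, and groups and replicate numbers were taken from the labels. The authors deposited whole read counts per gene and FPKM values, with no aligner or counter named in the sources used here. Notes of the submitters name mm10, but all 58735 genes lie at GENCODE 29 positions on GRCh38, which gave all coordinates. A further deposited table, with the same values and group means, was not used. As the count table used here held 1310 genes, limma on FPKM was the main test, and the count tests were run as alternatives on whole reads recovered from the deposited FPKM by gene length and 1 constant per library. Of the values above 0, 100% gave a whole read to within 0.01, and the recovered reads equalled the counts of all 1310 genes. Counting was not stated to use strand, and genes overlapping the 10 had at most 0.446% of their reads.

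The main comparison used limma 3.58.1 (variance trend) under R 4.3.3 on log2(FPKM + 1) for 11479 genes averaging 1 FPKM or more, with p-values adjusted by Benjamini and Hochberg at a threshold of 0.05. Fold changes on this scale understate low genes. Alternatives were a pseudocount of 0.1, no filter, protein-coding genes only, the replicate block, replicates 2 and 3 alone, TMM scaling, each library left out, edgeR 4.0.16 and DESeq2 1.42.0, and the fits were tested on simulated data. The 10 genes, the lists and the tests were chosen with earlier results of these data known. Named beside the 10 were CSGALNACT2, up to 4 genes per list that passed, or the 3 with the smallest p where none did, paralogs, and the 3 genes nearest to CTGF, CYR61 and YAP1. Deviations from the group means of same-numbered libraries correlated across genes at 0.810, 0.631 and 0.686 for replicates 1 to 3. The block was taken from the shared replicate numbers, and the labels do not state a pairing. The main comparison has no block. Blocked values are given where they change a call among the 10 genes, and for only some of the other genes named. Vector replicate 3 and oeCSGALNACT2 replicate 2 also correlated, at 0.682, above the 0.631 of the replicates numbered 2. Vector replicate 2 and oeCSGALNACT2 replicate 3 correlated at 0.590. These values set replicate 1 apart and do not decide whether replicates 2 and 3 pair by number.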

Additional observations from a re-analysis of the deposited data

How the results depend on the processing

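With the replicate block, which pairs same-numbered libraries, limma called 4 of the 10 genes lower, against 1 without it, and 2578 genes lower and 2439 higher over all genes, against 97 and 58. EdgeR with the block called 4, with 2879 lower and 3179 higher over all genes. Beyond CYR61, AMOTL2 and AJUBA, the block changed no call among the 10 in limma. On replicates 2 and 3 alone limma called 5 of the 10 lower, with 2421 lower and 2379 higher over all genes, and DESeq2 called 2, with 418 and 313. Testing all genes with any FPKM above 0 left 0 of the 10, with 20 lower and 11 higher over all genes, and CTGF at an adjusted p of 0.0979. EdgeR without the block called 0 lower, with 79 and 60 over all genes. Without 1 library the count was 0 in every case, with 4 to 88 genes lower and 1 to 71 higher over all genes, and the cause was not tested. A pseudocount of 0.1, protein-coding genes only and TMM scaling left the count at 1. No alternative called any of the 10 higher. The 6 target genes stayed below 0 in all 15 alternatives. The sign turned for YAP1 (-0.13 to 0.18), WWTR1 (-0.31 to 0.03), TEAD4 (-0.19 to 0.49) and TEAD3 (-0.37 to 0.03) without 1 library. With the longer motif, 3.46% of promoter windows held a match, against 14%. The 22-gene signature had 0 to 10 genes lower, with 0 when replicate 2 or 3 of either group was left out, and 0 to 3 higher. The depth of ANKRD1, 28 to 71 reads per library, limits its comparison.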
